A study of Arabidopsis thaliana with 18 samples.

Results

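The XTH family of *Arabidopsis thaliana* codes for xyloglucan endotransglucosylase/hydrolases, and the genes described here are the 30 members *XTH4* to *XTH33*. Members were taken by their TAIR locus identifiers from a deposited table of 35197 rows, and all 30 had a row. Of these members, 29 reached the 5 reads over all libraries required for testing, beside 23760 rows tested in all. The study sequenced RNA of whole roots collected 5 days after germination from Col-0 wild type (WT) and from *lpcat*, a double mutant of *LPCAT1* and *LPCAT2*, the enzymes that put a fatty acid back onto lysophosphatidylcholine (LPC). Each genotype was grown on 1/2 MS medium (control), on the same medium with 20 µg/mL lysoPAF (an ether-linked analog of LPC), or with 20 µg/mL lysoPAF and 50 µM ONO (lysoPAF + ONO), ONO-RS-082 being an inhibitor of phospholipase A2. The labels give the amount of ONO in µM and the study's text gives it in µg/mL, so the dose is uncertain. Each of the 6 groups had 3 libraries. Every lysoPAF + ONO group also contained lysoPAF, and no group with ONO alone was analysed here, so the effect of ONO is seen only on top of lysoPAF. The mutant carries 1 combination of alleles, and the labels do not say whether the 3 libraries of a group came from separate cultures, so the p-values below measure the spread between these libraries.

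Xyloglucan is the main hemicellulose of the primary wall of dicots, where it coats and tethers cellulose microfibrils. XTH enzymes cut a xyloglucan chain and either join the new end to another chain, which lets the wall be rebuilt while a cell expands, or pass it to water, which shortens the chain. In roots the family is known for acting in the elongation zone and in growing root hairs. Most members belong to the clades known for the joining reaction, *XTH31* and *XTH32* to a clade known for hydrolysis, and *XTH27* to *XTH30* to a neighbouring clade. *XTH22* (TCH4) is the classic touch-induced wall gene, and *XTH23* (XTR6) is its close relative.

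The stretch that codes for the catalytic site is shown for members on which the results turn, to give their differences from *XTH22*. It does not show how reads of the nearest copies are told apart. The sequences are from RefSeq (TAIR10.1), are 27 coding bases long, run 5′ to 3′ and code for 9 residues, and capitals mark the bases that differ from *XTH22*.
XTH22: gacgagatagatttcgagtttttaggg
XTH23: gacgagatTgaCttTgagttCttGggA
XTH12: gaTgagatTgatttcgagttCttGggT
XTH13: gaTgaAatCgaCttcgagttCttGggT
XTH14: gaTgagatTgaCttcgagtttttGggA
XTH21: gacgagatagatttcgagtttttGggg
XTH7: gacgagCtTgatttTgagttCttaggA
XTH31: gaTgagGtCgatAtcgagtttCtaggg
The stretch was found in 29 of the 30 members, with between 1 and 8 bases different from *XTH22*, and *XTH21* is the member with 1. Over the whole coding sequence *XTH22* and *XTH23* were 80.9% identical, with a longest shared run of 24 bases. *XTH12* and *XTH13* were 89.7% identical (longest run 47 bases), *XTH17* and *XTH18* 92.2% (47 bases), and *XTH18* and *XTH19* 89.2% (68 bases). All these runs are shorter than a read, but how the counting handled reads that fit 2 copies is not given in the sources used here, so the values of *XTH12*, *XTH13* and *XTH17* to *XTH20* are uncertain to that degree.

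Several members are neighbours in the genome (coordinates from TAIR10.1). *XTH23* (AT4G25810; chromosome 4, 13128394 to 13129927) and *XTH14* (AT4G25820; chromosome 4, 13130291 to 13131860) lie on the plus strand with 363 bases and no gene between them. *XTH12* (AT5G57530; chromosome 5, 23300321 to 23301689), *XTH13* (AT5G57540; 23302787 to 23304095), *XTH25* (AT5G57550) and *XTH22* (AT5G57560; 23307006 to 23308680) follow each other on the minus strand, with 1 other gene between *XTH12* and *XTH13*. *XTH24* (AT4G30270), *XTH18* (AT4G30280) and *XTH19* (AT4G30290) form another run on chromosome 4. *XTH31* (AT3G44990) lies on chromosome 3 (16446935 to 16448844), *XTH7* (AT4G37800) on chromosome 4 (17775370 to 17777445), *XTH8* (AT1G11545) on chromosome 1 (3878495 to 3880391), *XTH21* (AT2G18800) on chromosome 2 (8144881 to 8146477) and *XTH30* (AT1G32170) on chromosome 1 (11575320 to 11578030). The other members given by group below are *XTH15* (AT4G14130), *XTH20* (AT5G48070) and *XTH26* (AT4G28850).

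The libraries held 8681898 to 16767002 reads in genes, and all 39 entries of 5 marker lists (root tissue, root hair, dividing cells, secondary-wall xylem and green tissue) were above 0 in every library, including *SHR*, *SCR* and *WOX5* of the root. Of the targeted genes, only *LPCAT1* was lower in the libraries labelled *lpcat*. It lay between 247 and 342 normalized counts in the 9 WT libraries and between 47.3 and 72.2 in the 9 *lpcat* libraries. *LPCAT2* lay between 186 and 234 in WT and between 435 and 774 in *lpcat*, so its counts were not lowered. Counts over a whole gene do not show whether its transcript is intact. The study measured LPCAT enzyme activity in *lpcat* roots far below that of WT. In the text below, *lpcat* means the libraries so labelled. One library stood apart from its group. On the first principal component, which carried 30.7% of the variance, *lpcat* control replicate 2 lay at 32.5, against -31.2 and -34.4 for replicates 1 and 3 and 30.9 to 37.6 for the *lpcat* lysoPAF libraries. Calls that use it are therefore given with and without it. Green-tissue markers differed between libraries as well: their summed level was 1739, 1725 and 4700 normalized counts in WT control and 4303, 690 and 4677 in *lpcat* control, the 690 in the library that stood apart being the lowest of the 18. Over all libraries limma called 0 of these 6 markers in any comparison. Without that library 1 was higher in *lpcat* on control and 2 on lysoPAF + ONO. LysoPAF then lowered 1 in WT and 5 in *lpcat*, beside 6.84% and 18.7% of all rows called in either direction. The genotype test of the lysoPAF step then had 1 lower. The part of green tissue in the members' values was not tested. Leaving that library out also lowers the spread shared by all comparisons, so that counts change in comparisons that do not use it.

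In WT control roots levels differed widely between members on the scale of normalized counts per kb of transcript. *XTH4*, a member known from xylem and hypocotyl, had the highest level, at 1138 ± 94.9 (SD, n = 3). It was followed by *XTH31* (1025 ± 90.5), *XTH14* (965 ± 18.5), *XTH24* (906 ± 64.6) and *XTH8* (846 ± 90.9), and each neighbour down to *XTH15*, the 9th (685 ± 56.4), overlapped the next in its libraries. A gap without overlap separated *XTH15* from *XTH16* (353 ± 30.4). *XTH23* (62.1 ± 5.44) and *XTH22* (41.9 ± 0.714) stood 23rd and 24th, so the pair described first below was among the least abundant of the measured members. *XTH6*, *XTH11*, *XTH25* and *XTH29* stayed under 10 normalized counts in every library, and *XTH25* had a total of 1 read and was not tested. *XTH1* to *XTH3* had 3 rows, of which 1 was tested and 0 were called in any comparison.

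**Figure D1:**
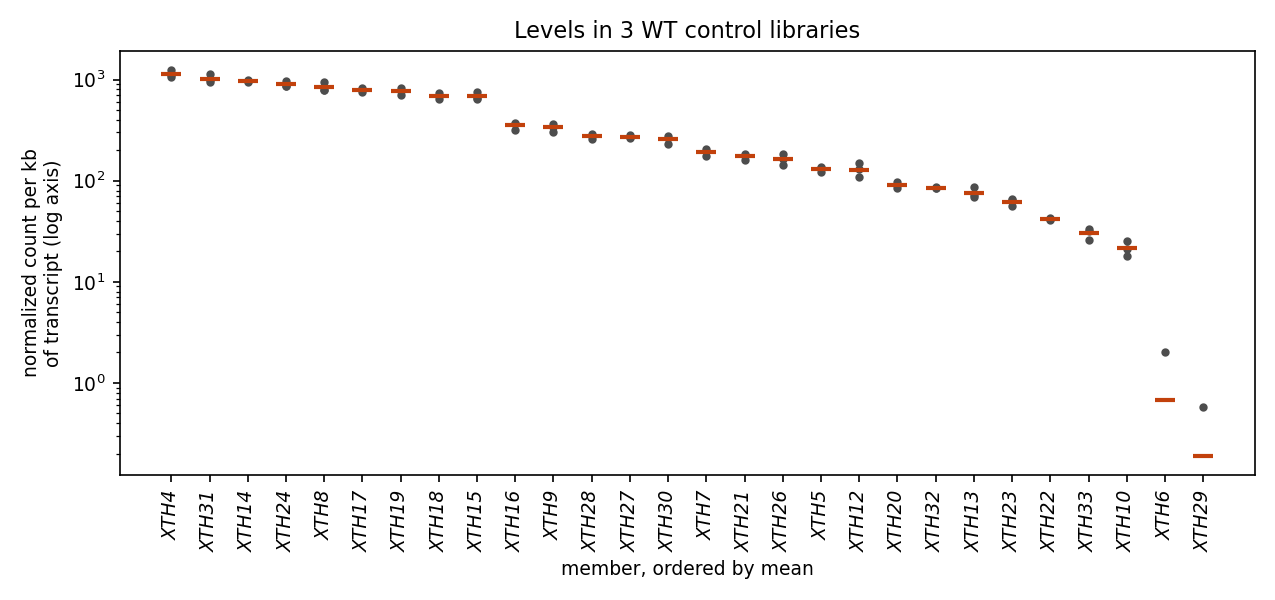
Levels of the 28 members above 0 in WT control roots, as normalized count per kb of transcript on a log axis (vertical) for members ordered by their mean (horizontal). Grey points are libraries above 0 and red bars are means of 3 libraries; the plot falls from 1138 for *XTH4* to 62.1 for *XTH23* and 41.9 for *XTH22*, and the means of *XTH6* and *XTH29* lie below 1.

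Counted over the family, calls pointed upward in *lpcat* against WT. With ONO they pointed downward in *lpcat*, whereas in WT the direction depended on the libraries in the fit. In these counts a call is an adjusted p under 0.05 in the limma fit over all 18 libraries. Between genotypes on control medium 8 members were higher in *lpcat* and 0 lower, where 2.24% of all tested rows were higher and 0.53% lower. On lysoPAF 11 members were higher and 0 lower (6.56% and 4.63% of all rows), and on lysoPAF + ONO 3 were higher and 0 lower (2.13% and 1.14%). The median log2 fold change of the 29 members was 0.26 on control, 0.47 on lysoPAF and 0.15 on lysoPAF + ONO, beside medians over all rows of -0.01, 0.00 and 0.01. LysoPAF against control gave 3 members higher and 0 lower in WT (1.58% and 0.901% of all rows) and 5 higher and 0 lower in *lpcat* (1.94% and 1.57%). Adding ONO to lysoPAF gave 0 higher and 3 lower in WT (3.72% and 1.77%) and 0 higher and 6 lower in *lpcat* (3.55% and 2.51%), with a median of -0.31 in *lpcat* and 0.00 in WT. These comparisons share groups, the lysoPAF libraries serving as both the treated and the reference side, so their counts are not independent of each other. Without *lpcat* control replicate 2 the 3 genotype comparisons had 7, 14 and 6 members higher, the lysoPAF comparisons 6 higher and 1 lower in WT and 10 higher in *lpcat*, and the ONO comparisons 5 higher and 3 lower in WT and 1 higher and 10 lower in *lpcat*; the share of all rows called in either direction was then 7.06%, 17%, 8.69%, 6.84%, 18.7%, 10.5% and 11.8%. With only the compared libraries in the fit, limma called 0 members between genotypes on control and 0 for lysoPAF in *lpcat*, and the adjusted p of *XTH12*, *XTH13* and *XTH14* on control was then 0.218, 0.213 and 0.188.

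The summed level of the 30 members was higher in every *lpcat* library than in every WT library on control and on lysoPAF. It lay between 13448 and 13816 normalized counts in the WT control libraries and between 16293 and 17596 in the *lpcat* control libraries. On lysoPAF it lay between 14029 and 14472 in WT and between 18705 and 19142 in *lpcat*. On lysoPAF + ONO it lay between 13201 and 15257 in WT and between 15186 and 16233 in *lpcat*, where the ranges overlapped. In WT its median was 14258 on lysoPAF and 14834 on lysoPAF + ONO, and those ranges overlapped too. The sum is dominated by abundant members such as *XTH31* and *XTH14*.

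**Figure D2:**
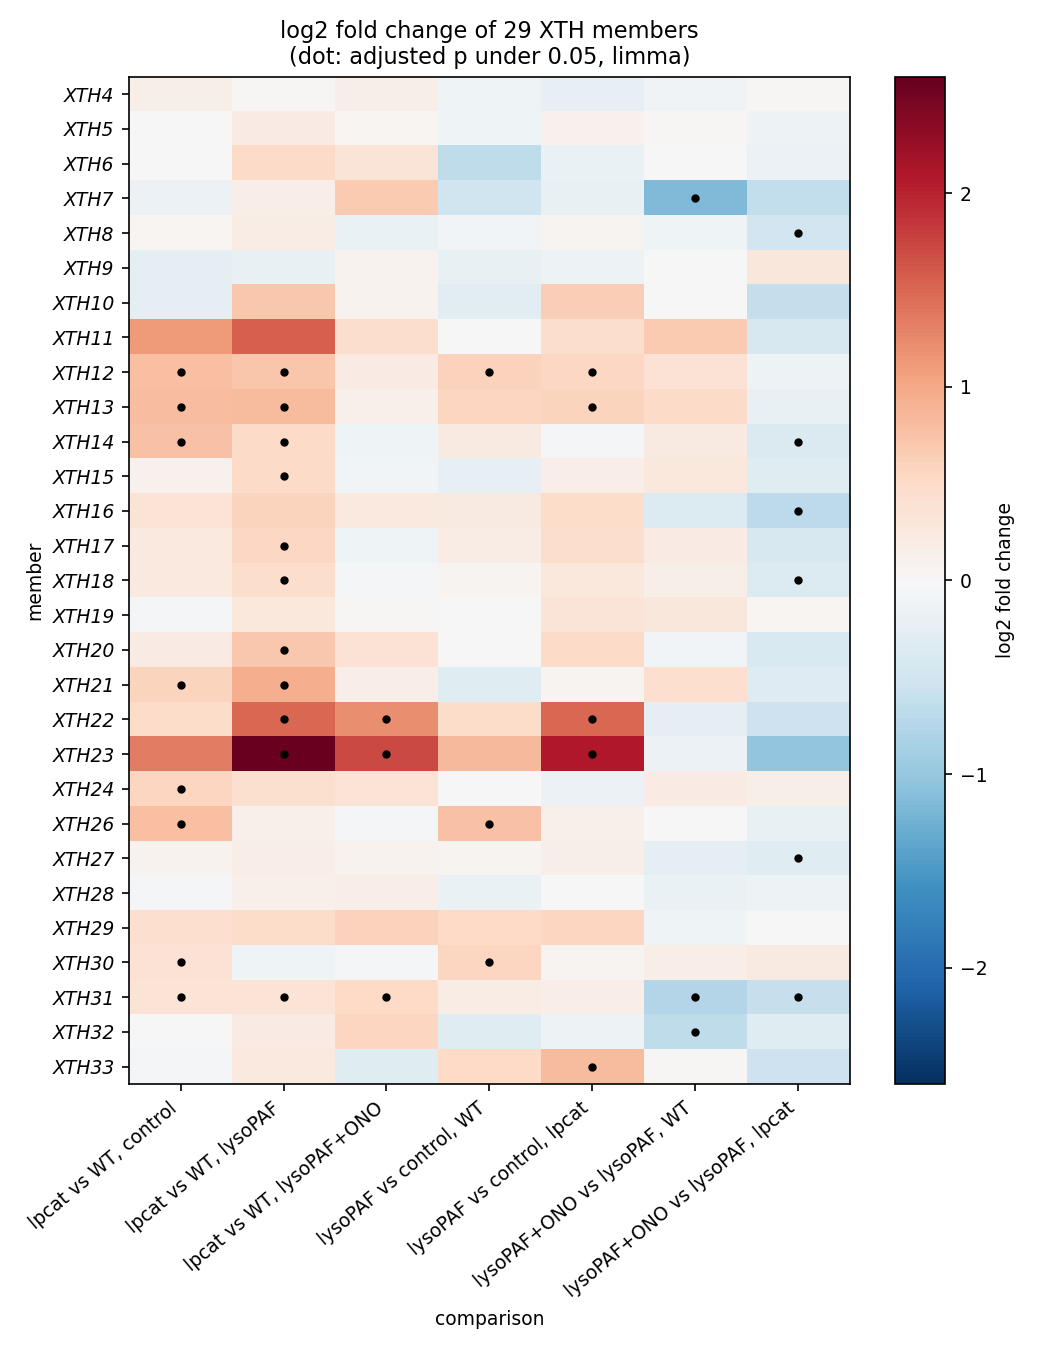
Log2 fold change (colour) of the 29 tested members (vertical) in the 7 comparisons between groups (horizontal), with a dot where limma's adjusted p was under 0.05. Red cells fill most of the lysoPAF genotype column, where 11 members carry a dot, and blue cells most of the last column, where 6 do; the darkest cell is *XTH23* in *lpcat* against WT on lysoPAF, at 2.58.

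*XTH23* and the touch gene *XTH22* had the largest log2 differences between genotypes on lysoPAF of the called members. In WT, *XTH23* had 76.8, 88.2 and 90.8 normalized counts on control, 168, 123 and 175 on lysoPAF, and 138, 138 and 135 on lysoPAF + ONO. The *lpcat* libraries had 95.3, 804 and 131 on control, 739, 937 and 1120 on lysoPAF, and 397, 455 and 508 on lysoPAF + ONO. Every *lpcat* library on either lysoPAF medium was above every WT library, and on control medium the highest value belonged to the library that stood apart. *XTH23* was 5.96-fold higher in *lpcat* on lysoPAF (log2 2.58, SE 0.45, adjusted p = 0.00121) and 3.28-fold higher on lysoPAF + ONO (log2 1.71, SE 0.45, adjusted p = 0.043). The latter call was lost in 8 of 16 alternatives: with DESeq2 (adjusted p = 0.051), with no filter on low values (0.0658) and without any 1 of the 6 compared libraries (0.089 to 0.15). On control medium the log2 difference was 1.33 with an adjusted p of 0.125, and without *lpcat* control replicate 2 it was 0.39 (SE 0.16, adjusted p = 0.163). It was called by edgeR (2.05, adjusted p = 0.0233 with RLE factors, and 2.04, adjusted p = 0.0273 with TMM factors), by DESeq2 (2.02, adjusted p = 0.0146) and by limma without *lpcat* control replicate 1 (1.92, adjusted p = 0.0202).

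Within *lpcat*, *XTH23* rose on lysoPAF by 2.08 on the log2 scale (SE 0.45, adjusted p = 0.0241), and without *lpcat* control replicate 2 by 3.03 (SE 0.16, adjusted p = 3.2e-12). The call over all libraries was lost in 8 of 15 alternatives. These were edgeR with RLE factors (1.41, adjusted p = 0.0648) or TMM factors (1.42, adjusted p = 0.0657), DESeq2 (1.44, adjusted p = 0.123), the compared libraries alone (adjusted p = 0.47), and the fits without *lpcat* control replicate 1 (adjusted p = 0.145), *lpcat* control replicate 3 (0.179), *lpcat* lysoPAF replicate 2 (0.0854) and *lpcat* lysoPAF replicate 3 (0.0971). The same step in WT was 0.84 (SE 0.45, adjusted p = 0.36). In the fit without that library it was 0.84 (SE 0.15, adjusted p = 0.00101). The difference between the genotypes' steps was 1.24 (SE 0.64, adjusted p = 0.477) over all libraries and 2.19 (SE 0.22, adjusted p = 3.47e-07) without that library, so this call is present only when the library is left out. With ONO the log2 difference in *lpcat* was -1.03 (SE 0.45, adjusted p = 0.208), or adjusted p = 3.72e-05 in the fit without that library, although the values of the 2 groups do not overlap. In WT the ONO step was -0.16 (adjusted p = 0.895).

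*XTH22*, at a lower level, was also higher in *lpcat* on both media with lysoPAF. It had 66.6 ± 1.13 (SD, n = 3) normalized counts in WT control, 95 ± 23.9 in WT lysoPAF and 78.9 ± 10.9 in WT lysoPAF + ONO. Mutant libraries had 109 ± 77.9 on control, 264 ± 29.8 on lysoPAF and 184 ± 30.9 on lysoPAF + ONO. The large SD on control comes from the library that stood apart, at 198, the others being at 57 and 70.9. *XTH22* was higher in *lpcat* by 1.49 on lysoPAF (2.82-fold, SE 0.30, adjusted p = 0.00323) and by 1.20 on lysoPAF + ONO (2.30-fold, SE 0.30, adjusted p = 0.0325). The latter was not called without WT lysoPAF + ONO replicate 1, 2 or 3 (adjusted p = 0.136, 0.0867 and 0.0571), nor without replicate 2 or 3 of *lpcat* lysoPAF + ONO (0.152 and 0.0961). On control medium the log2 difference was 0.48 (adjusted p = 0.461), and -0.065 (adjusted p = 0.892) without the library at 198. LysoPAF raised it in *lpcat* by 1.49 (adjusted p = 0.018), and by 2.03 (adjusted p = 2.73e-08) without that library. That step was not called with the compared libraries alone (adjusted p = 0.47), without *lpcat* control replicate 1 or 3 (0.115 and 0.153) or without *lpcat* lysoPAF replicate 2 or 3 (0.077 and 0.0826). With ONO the log2 difference of *XTH22* was -0.53 in *lpcat* (adjusted p = 0.344, or 0.0442 without *lpcat* control replicate 2). In WT it was -0.24 (adjusted p = 0.728). The ONO steps of the genotypes differed by -0.29 (adjusted p = 0.821, or 0.578 without that library).

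**Figure D3:**
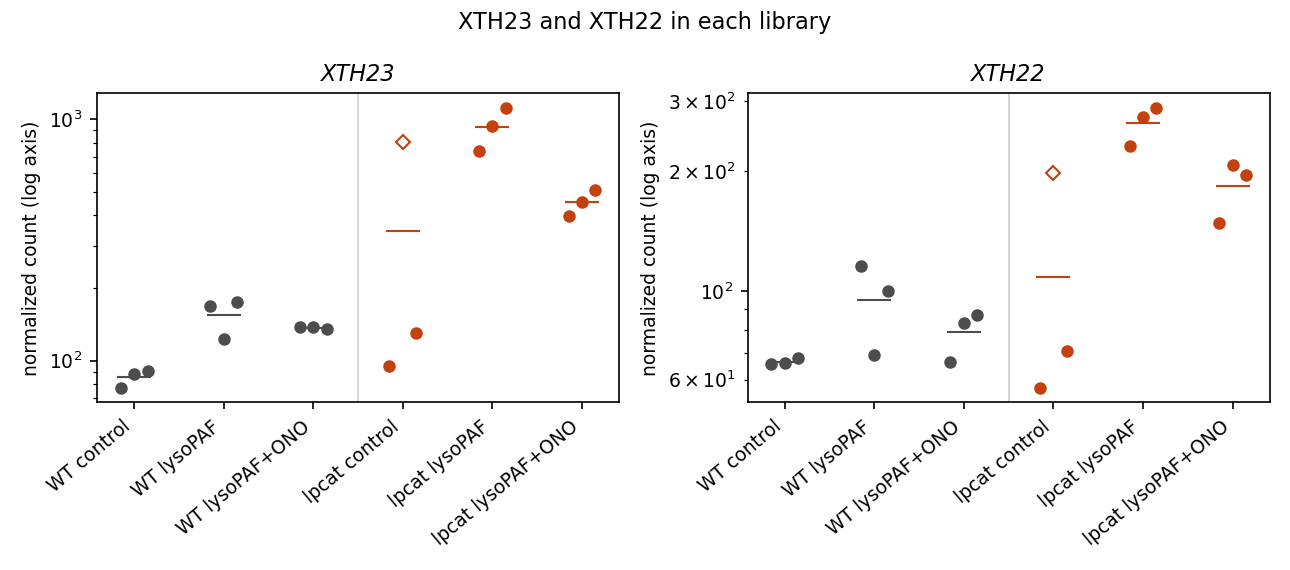
Normalized count (log axis, vertical) of *XTH23* and *XTH22* in each library of the 6 groups (horizontal); points are libraries, horizontal bars are means of 3, and the open diamond is *lpcat* control replicate 2. *XTH23* lies between 739 and 1120 in the *lpcat* lysoPAF libraries and between 123 and 175 in the WT lysoPAF libraries, and the diamond, at 804, sits with the former.

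The 250 bases before the annotated start of this pair are shown because both genes, which lie on different chromosomes, were higher in *lpcat* on both media with lysoPAF. They are from RefSeq (TAIR10.1), read 5′ to 3′ on each gene's strand, and end at the base before the start. Capitals mark matches, on either strand, to 2 of the 5 motifs searched: TTGAC (W-box core; GTCAA on the other strand) and CGTGTG (brassinosteroid element).
XTH22, chr5:23308681-23308930, minus strand: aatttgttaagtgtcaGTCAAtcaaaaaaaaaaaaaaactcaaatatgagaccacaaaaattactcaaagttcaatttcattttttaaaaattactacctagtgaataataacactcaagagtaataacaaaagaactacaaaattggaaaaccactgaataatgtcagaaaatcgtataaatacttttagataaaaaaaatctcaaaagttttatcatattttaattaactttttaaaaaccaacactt
XTH23, chr4:13128144-13128393, plus strand: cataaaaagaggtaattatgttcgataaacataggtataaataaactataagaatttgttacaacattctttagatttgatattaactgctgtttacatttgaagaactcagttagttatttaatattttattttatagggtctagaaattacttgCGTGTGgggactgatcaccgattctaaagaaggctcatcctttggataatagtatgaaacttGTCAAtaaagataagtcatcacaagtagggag
TTGAC stood 234 bases before the start of *XTH22* and 32 bases before that of *XTH23*, and CGTGTG 94 bases before that of *XTH23*. TTGAC was present upstream of 14 of the 30 members (46.7%) and of 44.9% of all 27443 genes, and CGTGTG upstream of 3 members (10%) and 5.37% of all genes. The other motifs searched were CACGTG (G-box, 0 members and 6.49% of all genes), TGTCTC (auxin element, 1 member and 10.9%) and GAANNTTC (heat shock element, 1 member and 9.55%). These are matches of letters and describe no binding.

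*XTH12*, *XTH13*, *XTH14* and *XTH26*, members known from the root hair zone, were all higher in *lpcat* on control medium. *XTH14* had 1150, 1108 and 1121 normalized counts in WT control and 2066, 1547 and 2192 in *lpcat* control. On lysoPAF it had 1336, 1276 and 1367 in WT and 1855, 1943 and 1815 in *lpcat*, and on lysoPAF + ONO 1578, 1676 and 1434 in WT and 1463, 1314 and 1534 in *lpcat*. The genotypes did not overlap on the first 2 media and did on the third. *XTH14* was higher in *lpcat* by 0.76 on control (SE 0.10, adjusted p = 0.000184) and by 0.50 on lysoPAF (SE 0.10, adjusted p = 0.00328), whereas on lysoPAF + ONO the log2 difference was -0.12 (adjusted p = 0.593). The control difference was 0.92 (adjusted p = 9.61e-08) without the library at 1547.

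The ONO step of *XTH14* differed between genotypes. It fell by 0.38 in *lpcat* (adjusted p = 0.0281) and was 0.23 in WT (adjusted p = 0.196), and the difference of these steps was -0.62 (SE 0.14, adjusted p = 0.0364). The fall in *lpcat* was not called without *lpcat* lysoPAF replicate 1, 2 or 3 (adjusted p = 0.0677, 0.105 and 0.0685), nor without replicate 1 or 2 of *lpcat* lysoPAF + ONO (0.0645 and 0.143). The difference of the steps was not called with no filter on low values (0.0504) or without any 1 of 9 of the 12 libraries on lysoPAF media (0.0685 to 0.128), the other 3 being *lpcat* lysoPAF replicate 1 and replicate 3 of both lysoPAF + ONO groups. *XTH14* was the 1 member called in that test, beside 1.26% of all rows. At an unadjusted p under 0.05 there were 8 members, all with a negative sign. The share of all rows at that threshold was not counted, so these 8 have no background. Without *lpcat* control replicate 2, 8 members were called, all negative, beside 4.96% of all rows: *XTH8*, *XTH13*, *XTH14*, *XTH15*, *XTH17*, *XTH18*, *XTH21* and *XTH23*. The corresponding test of the lysoPAF step called 0 members with limma, beside 0.0547% of all rows, and DESeq2 and edgeR also called 0. It had 6 members at an unadjusted p under 0.05, 4 positive and 2 negative, again without a counted share of all rows. Without that library the lysoPAF test called 7, with *XTH19*, *XTH20*, *XTH22* and *XTH23* positive and *XTH14*, *XTH26* and *XTH30* negative, beside 9.49% of all rows.

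*XTH12* was called in 4 comparisons, each time upward. It had 148, 125 and 171 normalized counts in WT control, 203, 252 and 219 in WT lysoPAF, and 306, 278 and 288 in WT lysoPAF + ONO. The *lpcat* values were 238, 294 and 230 on control, 432, 364 and 319 on lysoPAF, and 315, 327 and 368 on lysoPAF + ONO. The genotypes did not overlap on any medium, although the third difference, 0.21 on the log2 scale, did not pass the test (adjusted p = 0.453). *XTH12* was higher in *lpcat* by 0.78 on control (SE 0.13, adjusted p = 0.00201) and by 0.72 on lysoPAF (SE 0.13, adjusted p = 0.00142). LysoPAF raised it by 0.61 in WT (adjusted p = 0.0187) and by 0.54 in *lpcat* (adjusted p = 0.0294). With *lpcat* control replicate 2 left out, the difference on control was 0.67 (adjusted p = 0.00273) and the lysoPAF step in *lpcat* 0.65 (adjusted p = 0.000828). The step in WT was not called without WT control replicate 2 (adjusted p = 0.0983) or WT lysoPAF replicate 2 or 3 (0.0937 and 0.057). The step in *lpcat* was not called without *lpcat* control replicate 1 or 3 (0.148 and 0.196) or any *lpcat* lysoPAF library (0.0693 to 0.11).

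*XTH13*, next to *XTH12* and its near copy, had 83.7 ± 10.6 (SD, n = 3) normalized counts in WT control, 124 ± 23.9 in WT lysoPAF and 174 ± 13.1 in WT lysoPAF + ONO. The mutant had 146 ± 21.4, 219 ± 19.9 and 193 ± 27.2 on the same media. It was higher in *lpcat* by 0.80 on control (adjusted p = 0.00649) and by 0.83 on lysoPAF (adjusted p = 0.00168), and lysoPAF raised it in *lpcat* by 0.58 (adjusted p = 0.041). With *lpcat* control replicate 2 left out these were 0.68 on control (adjusted p = 0.00997) and 0.69 for the step (adjusted p = 0.00282), and the step was not called without *lpcat* control replicate 1 or 3 (0.165 and 0.245) or any *lpcat* lysoPAF library (0.0971 to 0.13). *XTH26*, a root hair member, had 192 ± 24.1 in WT control, 326 ± 45.8 in WT lysoPAF and 323 ± 38.4 in WT lysoPAF + ONO, and 342 ± 111, 359 ± 37.7 and 314 ± 7.60 in *lpcat*. It was higher in *lpcat* on control by 0.77 (adjusted p = 0.025) and rose on lysoPAF in WT by 0.76 (adjusted p = 0.0312). The genotypes overlapped on every medium. Its *lpcat* control values were 404 and 408, with 214 in the library that stood apart, which lay below WT control replicate 1 at 217. Without that library the genotype difference was 1.08 (adjusted p = 6.35e-06). It was not called without WT control replicate 2 or 3 (adjusted p = 0.0783 and 0.112) or *lpcat* control replicate 1 or 3 (0.0905 and 0.0847), and the rise in WT was not called without WT control replicate 2 or 3 (0.0934 and 0.147) or any WT lysoPAF library (0.0586 to 0.13).

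Root hair markers, like these members, were higher in *lpcat* on control medium. Of 12 root hair marker genes, 10 were higher in *lpcat* on control (2.24% of all tested rows) and 0 lower (0.53%). On lysoPAF 4 were higher (6.56%) and on lysoPAF + ONO 0 (2.13%). Their summed level lay between 11753 and 14470 normalized counts in WT control, between 16742 and 26984 in *lpcat* control, between 13542 and 18305 in WT lysoPAF and between 18373 and 21469 in *lpcat* lysoPAF. On lysoPAF + ONO it lay between 18924 and 20898 in WT and between 17714 and 23065 in *lpcat*. No defining marker, *RSL4*, *COBL9* and *PRP3* included, was at 0 in any library. In the fit without *lpcat* control replicate 2, 7.06%, 17% and 8.69% of all rows were called in either direction between genotypes. Of the markers, 11 were then higher on control, 7 on lysoPAF and 0 on lysoPAF + ONO, where 1 was lower. The genotype test of the ONO step then had 6 lower, against 1 over all libraries, and that of the lysoPAF step 5 lower. LysoPAF against control had 2 markers higher and 0 lower in WT over all libraries (1.58% and 0.901% of all rows). In *lpcat*, where *XTH12* and *XTH13* rose, it had 0 higher and 0 lower (1.94% and 1.57%). Without *lpcat* control replicate 2 this step had 3 higher and 0 lower in WT, and 1 higher and 4 lower in *lpcat*. In whole roots more cells of a type and more RNA per cell cannot be told apart. The part of root hair number in the values of *XTH12*, *XTH13*, *XTH14* and *XTH26* was not tested.

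**Figure D4:**
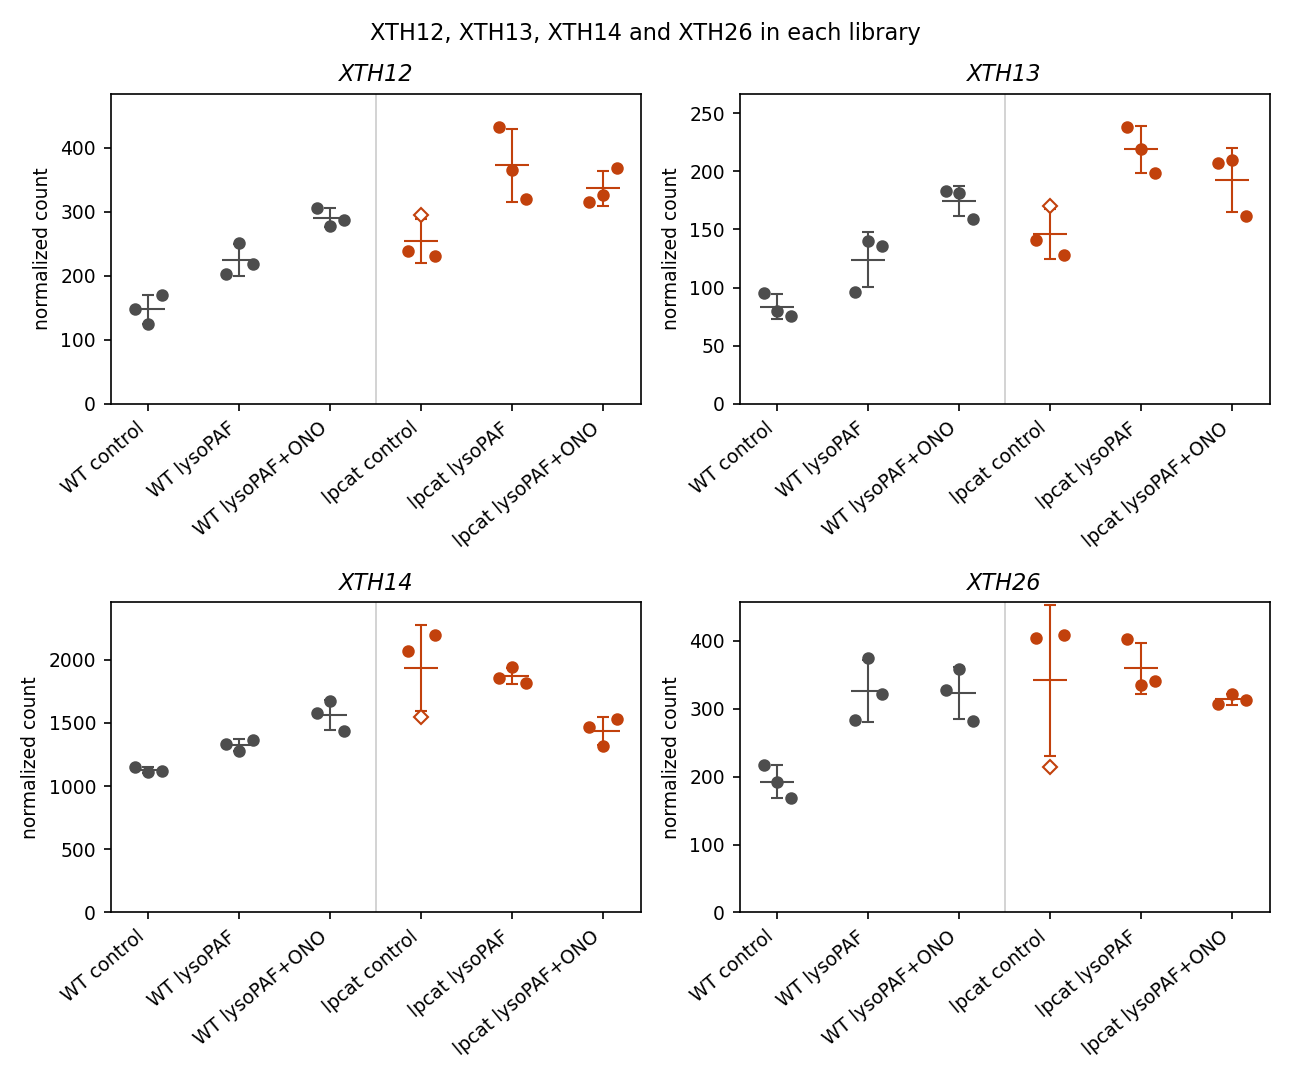
Normalized count (vertical, from 0) of *XTH12*, *XTH13*, *XTH14* and *XTH26* in each library of the 6 groups (horizontal); points are libraries, bars are means ± SD of 3, and the open diamond is *lpcat* control replicate 2. For *XTH14* the *lpcat* control libraries, from 1547 to 2192, lie above the WT control libraries, from 1108 to 1150, and the genotypes overlap on lysoPAF + ONO.

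*XTH21* and the paralogues *XTH17*, *XTH18* and *XTH20*, members known from the root, and *XTH15* were higher in *lpcat* on lysoPAF. *XTH21*, which is known to affect root growth, had 220, 212 and 192 normalized counts in WT control, 188, 143 and 175 in WT lysoPAF, and 220, 243 and 220 in WT lysoPAF + ONO. In *lpcat* it had 265, 395 and 286 on control, 265, 368 and 352 on lysoPAF, and 243, 263 and 266 on lysoPAF + ONO. The genotypes did not overlap on control or lysoPAF, and on lysoPAF + ONO they lay next to each other. *XTH21* was higher in *lpcat* by 0.95 on lysoPAF (SE 0.14, adjusted p = 0.000295) and by 0.58 on control (SE 0.14, adjusted p = 0.0316), the latter not without *lpcat* control replicate 2 (0.41, adjusted p = 0.0603) or without WT control replicate 1, 2 or 3 (adjusted p = 0.0643, 0.0873 and 0.129). On lysoPAF + ONO its log2 difference was 0.18 (adjusted p = 0.578).

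*XTH18* had 912 ± 36.2 (SD, n = 3) normalized counts in WT lysoPAF and 1263 ± 104 in *lpcat* lysoPAF, *XTH20* 128 ± 3.50 and 212 ± 28.9, and *XTH15* 710 ± 29.3 and 1008 ± 93.4. Their log2 differences were 0.47 (adjusted p = 0.00517), 0.71 (adjusted p = 0.00584) and 0.50 (adjusted p = 0.0056). On control medium the same members had 870 ± 55.7 and 1044 ± 141, 127 ± 8.74 and 150 ± 30.7, and 827 ± 68.0 and 894 ± 38.6 in WT and *lpcat*, and no difference passed the test. On lysoPAF + ONO they had 1024 ± 136 and 987 ± 38.7, 125 ± 29.6 and 160 ± 10.5, and 854 ± 32.2 and 824 ± 174. *XTH17*, which lies outside the 14 members given in full, was higher in *lpcat* on lysoPAF by 0.53 (adjusted p = 0.04), and *XTH19*, the other paralogue, was not called (0.28, adjusted p = 0.154). In *lpcat*, ONO lowered *XTH18* by 0.35 (adjusted p = 0.0424). That call was lost without *lpcat* lysoPAF replicate 2 or 3 (adjusted p = 0.175 and 0.128) or any *lpcat* lysoPAF + ONO library (0.0668 to 0.134). Because reads of *XTH17* to *XTH20* may be shared, these are not independent measurements.

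Secondary-wall xylem markers were also higher in this comparison. All 6 listed genes were higher in *lpcat* on lysoPAF (6.56% of all rows), among them *CESA4*, *CESA7* and *CESA8* of the secondary wall cellulose synthase. On control 0 were higher (2.24%), and on lysoPAF + ONO 2 (2.13%). Without *lpcat* control replicate 2 these counts were 6, 0 and 4, beside 17%, 7.06% and 8.69% of all rows called in either direction. The summed level of the 6 genes lay between 2628 and 2788 normalized counts in WT lysoPAF and between 3859 and 4656 in *lpcat* lysoPAF. Of 8 dividing-cell genes 2 were lower in *lpcat* on lysoPAF (4.63% of all rows), with sums between 2695 and 2820 in WT and between 2266 and 2412 in *lpcat*. *XTH4* and *XTH9*, members known from xylem, were not called in any comparison, and their log2 differences on lysoPAF were 0.03 and -0.20. The part of tissue make-up in the family's values was not tested.

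*XTH31*, of the clade known for hydrolysis, had the smallest p of the family. It had 1566, 1320 and 1395 normalized counts in WT control, 1634, 1724 and 1505 in WT lysoPAF, and 845, 968 and 1073 in WT lysoPAF + ONO. Values in *lpcat* were 1905, 1782 and 1797 on control, 2279, 1932 and 1996 on lysoPAF, and 1315, 1290 and 1500 on lysoPAF + ONO. Within each genotype the lysoPAF + ONO libraries lay below the lysoPAF libraries without overlap, and on each medium the *lpcat* libraries lay above the WT libraries. ONO lowered it by 0.76 in WT (SE 0.09, adjusted p = 3.76e-05) and by 0.60 in *lpcat* (SE 0.09, adjusted p = 0.000946). The difference between the steps was 0.16 (95% interval -0.12 to 0.45, adjusted p = 0.64). *XTH31* was higher in *lpcat* by 0.36 on control (adjusted p = 0.0452), 0.35 on lysoPAF (adjusted p = 0.0207) and 0.51 on lysoPAF + ONO (adjusted p = 0.005), and it was the 1 member called in all 3 genotype comparisons. On control the difference was 0.38 (adjusted p = 0.0244) without *lpcat* control replicate 2. It was not called without WT control replicate 2 or 3 (0.182 and 0.139) or *lpcat* control replicate 1 or 3 (0.111 and 0.0685). Nor was it called with no filter on low values or with the compared libraries alone. On lysoPAF it was not called without WT lysoPAF replicate 1 or 3 (0.0543 and 0.105) or *lpcat* lysoPAF replicate 1 (0.0967). The difference on lysoPAF + ONO was not called with the compared libraries alone (adjusted p = 0.054).

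*XTH7*, a member of the joining clades, fell by the most with ONO in WT. It had 264, 252 and 228 normalized counts in WT control, 149, 177 and 197 in WT lysoPAF, and 72.2, 84.3 and 75.6 in WT lysoPAF + ONO. In *lpcat* it had 238, 153 and 300 on control, 252, 178 and 165 on lysoPAF, and 147, 112 and 118 on lysoPAF + ONO. In neither genotype did the ONO libraries overlap the lysoPAF libraries. ONO lowered it in WT by 1.15 (SE 0.19, adjusted p = 0.00107), and in *lpcat* the log2 difference was -0.64 (SE 0.19, adjusted p = 0.0563), or adjusted p = 0.0051 without *lpcat* control replicate 2. The difference between these steps was 0.51 (95% interval -0.06 to 1.09, adjusted p = 0.424).

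*XTH8* fell with ONO in *lpcat*. It had 962, 970 and 1157 normalized counts in WT control, 1019, 899 and 1011 in WT lysoPAF, and 914, 893 and 897 in WT lysoPAF + ONO. The *lpcat* libraries held 937, 1198 and 1056 on control, 1072, 1159 and 1128 on lysoPAF, and 785, 805 and 798 on lysoPAF + ONO. The 3 *lpcat* lysoPAF + ONO libraries were the lowest of all 18. ONO lowered it by 0.49 in *lpcat* (SE 0.09, adjusted p = 0.00243), and in WT the log2 difference was -0.11 (SE 0.09, adjusted p = 0.525). The difference between these steps did not pass the test over all libraries (-0.38, adjusted p = 0.146), and did without *lpcat* control replicate 2 (adjusted p = 0.0417).

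*XTH30*, known from salt responses, rose with lysoPAF in WT. It had 389, 372 and 326 normalized counts in WT control, 548, 503 and 538 in WT lysoPAF, and 609, 573 and 597 in WT lysoPAF + ONO. In *lpcat* it had 503, 406 and 499 on control, 496, 522 and 457 on lysoPAF, and 584, 561 and 595 on lysoPAF + ONO. The WT control libraries were the 3 lowest of the 18. LysoPAF raised it in WT by 0.55 (SE 0.09, adjusted p = 0.00364), and in *lpcat* the log2 difference was 0.07 (SE 0.09, adjusted p = 0.73). It was higher in *lpcat* on control by 0.37 (SE 0.09, adjusted p = 0.0292). This became 0.47 (adjusted p = 0.00139) without *lpcat* control replicate 2, and it was not called without WT control replicate 2 or 3 (0.0722 and 0.144) or *lpcat* control replicate 1 or 3 (0.0944 and 0.0861). The difference between the lysoPAF steps was -0.48 (adjusted p = 0.148), and -0.58 (adjusted p = 0.0016) without *lpcat* control replicate 2.

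**Figure D5:**
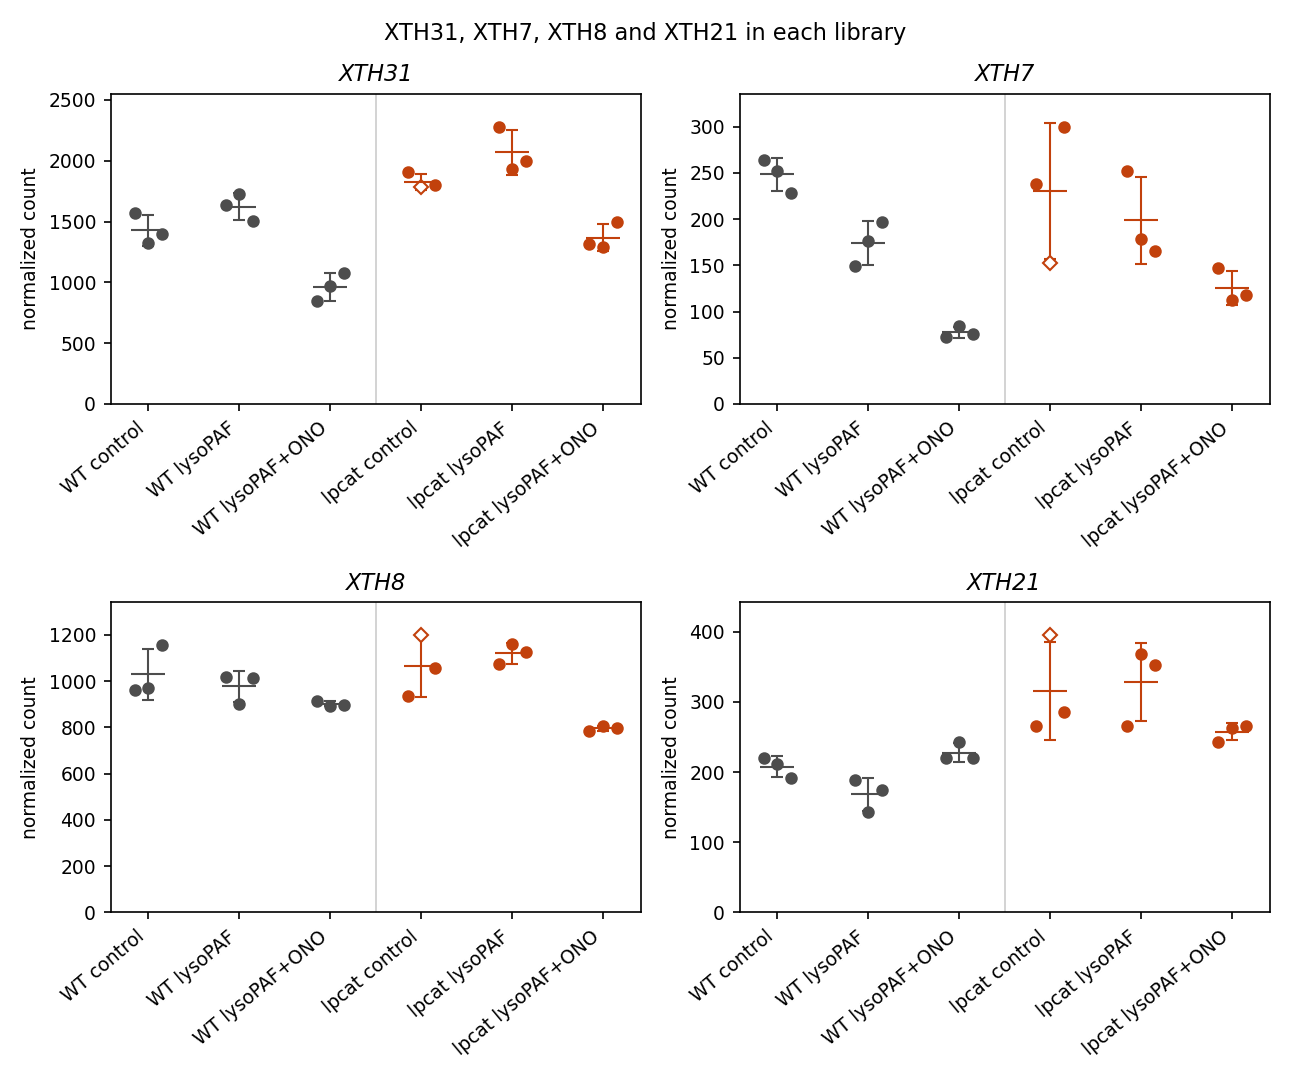
Normalized count (vertical, from 0) of *XTH31*, *XTH7*, *XTH8* and *XTH21* in each library of the 6 groups (horizontal); points are libraries, bars are means ± SD of 3, and the open diamond is *lpcat* control replicate 2. *XTH31* falls from between 1505 and 1724 to between 845 and 1073 in WT and from between 1932 and 2279 to between 1290 and 1500 in *lpcat* when ONO is added.

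The other called members lie outside the 14 with the smallest p and, like *XTH17*, had 1 call each. *XTH24* (MERI5B) was higher in *lpcat* on control by 0.55 (adjusted p = 0.0295), or 0.72 (adjusted p = 0.000368) without *lpcat* control replicate 2. *XTH33*, which carries a membrane anchor, rose with lysoPAF in *lpcat* by 0.82 (adjusted p = 0.0474), or 0.99 (adjusted p = 0.00409) without that library. With ONO, *XTH32*, the relative of *XTH31*, fell by 0.66 in WT (adjusted p = 0.0175), and *XTH16* and *XTH27* fell by 0.69 and 0.31 in *lpcat* (adjusted p = 0.0396 and 0.0427). In all, 20 members were called in at least 1 of the 7 comparisons between groups and 10 were not: *XTH4*, *XTH5*, *XTH6*, *XTH9*, *XTH10*, *XTH11*, *XTH19*, *XTH25*, *XTH28* and *XTH29*. The share of all tested rows called in at least 1 of the 7 was not counted, so the 20 cannot be set against a background.

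Genes that build and trim xyloglucan were counted in the same way. Among 16 genes of xyloglucan synthesis, 15 of which were tested, 1 was higher in *lpcat* on control, the xyloglucan acetyltransferase gene *TBL27* (0.50, adjusted p = 0.0174; 0.59, adjusted p = 0.00333 without *lpcat* control replicate 2), and 4 on lysoPAF, with *CSLC5*, a glucan synthase of the backbone, at 0.47 (adjusted p = 0.00054) and *XXT5*, a xylosyltransferase, at 0.36 (adjusted p = 0.00364). *CSLC5* fell with lysoPAF in WT by 0.40 (adjusted p = 0.00756) and rose with ONO in WT by 0.53 (adjusted p = 0.000137), the ONO step differing between genotypes by -0.56 (adjusted p = 0.0142). Of 5 genes that trim side chains, the fucosidase gene *AXY8* was higher in *lpcat* on lysoPAF (0.28, adjusted p = 0.0436) and no other call was made. Over all libraries 2.24% of all tested rows were higher in *lpcat* on control and 6.56% on lysoPAF. With *lpcat* control replicate 2 left out, 2 synthesis genes were higher on control and 6 on lysoPAF. In that fit 7.06% and 17% of all rows were called in either direction. The median log2 difference on lysoPAF was 0.25 for synthesis and -0.06 for trimming, beside 0.47 for the 29 members.

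Expansins loosen the wall without cutting polymers, and 22 of 24 were tested. On control 2 were higher in *lpcat*, *EXPA18* (0.66, adjusted p = 0.000964) and *EXPA7* (0.48, adjusted p = 0.0495), both of which are also on the root hair list. With *lpcat* control replicate 2 left out they were at 0.74 (adjusted p = 6.93e-05) and 0.59 (adjusted p = 0.00609). On lysoPAF 3 were higher and 1 lower, with *EXPA9* at 0.47 (adjusted p = 0.00114) and *EXPA18* at 0.40 (adjusted p = 0.0136), and on lysoPAF + ONO 0 were higher and 2 lower, *EXPB1* (-0.51, adjusted p = 0.00732) and *EXPA8* (-0.80, adjusted p = 0.0206). LysoPAF raised 2 in WT and 1 in *lpcat*. With ONO 1 rose and 2 fell in WT, and 2 fell in *lpcat*. In the fit without *lpcat* control replicate 2, expansins had 3 higher and 0 lower in *lpcat* on control. They then had 6 higher and 2 lower on lysoPAF, and 4 and 2 on lysoPAF + ONO. LysoPAF then raised 2 and lowered 2 in WT, and raised 3 and lowered 4 in *lpcat*. ONO raised 5 and lowered 6 in WT, and raised 1 and lowered 3 in *lpcat*. In that fit 6.84% to 18.7% of all rows were called in either direction. Over all libraries the median log2 difference of the expansins between genotypes on lysoPAF was 0.15.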

How the data were processed

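RNA of whole roots was sequenced as 18 paired-end libraries (TruSeq v2, a kit that does not mark strand, so reads of a gene and an overlapping antisense gene cannot be told apart). Per the labels the authors used STAR 2.4.0j, StringTie 1.0.3, HTSeq 0.6.0 and DESeq2 1.12.4 with TAIR10. The deposited values are a signal: counts divided by DESeq2 size factors, with 1 row per gene entry, and a locus can have several entries. All 400470 values above 0 were whole multiples of the value of 1 read within 0.001 reads, so the authors' counts could be recovered. Of 35197 rows, 8854 were at 0 in every library, and 501 named no locus (0.0233% of reads). Where a locus had several rows, the row with the highest mean was used. This concerned 5 members: *XTH14* and *XTH31* with 3 rows each, and *XTH17*, *XTH22* and *XTH28* with 2 each. Their other rows were left out, so the values given need not hold all reads of these loci.

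Normalized counts were tested as log2(value + 1) with limma 3.58.1 (R 4.3.3; trend), 1 coefficient per group over all libraries, for rows with at least 5 reads in total, with Benjamini-Hochberg adjustment over all 23760 rows and a threshold of 0.05; fold changes of low genes are therefore understated. The fit was tested on simulated data. Alternatives were pseudocounts of 0.5 and 5, other filters, edgeR 4.0.16 and DESeq2 1.42.0 on recovered reads, the compared libraries alone, the replicate number as a block, and leaving out libraries. Members and gene lists were chosen with earlier results of these data known. Library values were given for the 8 called members with the smallest p and group values for the 14 with the smallest. No 2 libraries of a group agreed within sampling noise (chi-square per gene from 1.45). Coordinates and sequences are from TAIR10.1, joined by locus identifier.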

Additional observations from a re-analysis of the deposited data

Results flagged for a closer look

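The ONO step of *XTH14*, the root hair zone member next to *XTH23*, differed between the genotypes in an interaction test within the fit over all libraries: -0.62 on the log2 scale (SE 0.14, adjusted p = 0.0364, limma), negative because the *lpcat* libraries fell from between 1815 and 1943 to between 1314 and 1534 normalized counts whereas the WT libraries went from between 1276 and 1367 to between 1434 and 1676. Over its alternatives the value lay between -0.68 and -0.55, with adjusted p from 0.000674 to 0.128. Root hair markers had 0 genes higher and 2 lower at this step in *lpcat* (3.55% and 2.51% of all rows) and 3 higher and 1 lower in WT (3.72% and 1.77%). The same interaction test called 1 of them lower, and 6 without *lpcat* control replicate 2, and their part in the difference was not tested.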

How the results depend on the processing

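Of 34 calls of the members given in full, 14 were kept under every alternative, and over their 539 refits all kept the direction, 441 the call. The not-called *XTH22* difference on control turned to -0.065 without *lpcat* control replicate 2 and was 0.83 at its highest, without *lpcat* control replicate 1. In the order genotype on control, lysoPAF and lysoPAF + ONO, lysoPAF in WT and *lpcat*, ONO in WT and *lpcat*, and the genotype tests of lysoPAF and of ONO, the counts of called members (8, 11, 3, 3, 5, 3, 6, 0 and 1) ranged over left-out libraries from 3 to 7, 9 to 14, 1 to 6, 1 to 7, 0 to 10, 2 to 8, 2 to 11, 0 to 7 and 0 to 8. The highest value in each was reached without *lpcat* control replicate 2. Fitting the compared libraries alone gave 0 on control, 1 for lysoPAF in WT, 0 for lysoPAF in *lpcat* and 6 for the genotype test of ONO. With no filter on low values lysoPAF in *lpcat* gave 3 and the genotype test of ONO 0, and DESeq2 gave 4 in the latter; all other counts stayed within 1.5 times. Same-numbered libraries were not treated as pairs, because in no comparison was every pair's correlation over 0.1. The labels do not say whether they were pairs, and these correlations cannot decide it. The replicate block gave 8, 12, 4, 4, 5, 4, 6, 0 and 1. With 3 libraries a group, a call can rest on 1 of them. Members with few reads, such as *XTH11*, cannot show a difference at this depth.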
